A study of Homo sapiens with 9 samples.

Results

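A set of 10 early response genes was described by name: the transcription factors EGR1, EGR2, EGR3 and NR4A1, the immediate early response genes IER2, IER3 and IER5, and the RNA decay factors ZFP36, ZFP36L1 and ZFP36L2. They were selected by gene symbol, and 10 of the 18970 gene symbols in the read tables were members. The measurements came from SLAM-seq of cranial neural crest cells (CNCCs) derived from the human embryonic stem cell line H9 (an established line), edited so that both SOX9 alleles carried an FKBP12-F36V, mNeonGreen and V5 tag. The compound dTAGV-1 brings the tagged SOX9 protein to a ubiquitin ligase, so that the protein is destroyed while the gene is left in place. The design addressed which genes change in newly made RNA soon after SOX9 protein is removed, and which change later.

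The 9 libraries formed 3 groups of 3 by the time in dTAGV-1, which was 0h, 3h or 24h. The labels give a relative SOX9 level of 100% at 0h and of 0% at 3h and at 24h. By the study's methods, cells had DMSO, the vehicle control, or 500 nM dTAGV-1 according to the condition. The 0h libraries are therefore taken as those given DMSO. Each group held the same 3 cultures of passaged CNCCs, named S9CC13_R6, S9CC47_R5 and S9CC47_R6 after the clone of the tagged line (S9CC13 or S9CC47) and the differentiation batch (R5 or R6). Every library, controls included, carried the tag and was given 100 uM 4-thiouridine for 2 h. For the cells taken at 3h this labeling started 1 h into the treatment, and for those taken at 24h it started 22 h into it. Untagged cells given dTAGV-1 were not analysed here, so an effect of the compound itself and an effect of SOX9 loss cannot be told apart. After chemical treatment, the labeled bases are read as T>C conversions, so the reads with a conversion (T>C reads) stand for RNA made in the labeling period and total reads stand for all RNA. Values for single libraries are given below in the order S9CC13_R6, S9CC47_R5 and S9CC47_R6, as reads divided by the library's DESeq2 size factor (normalized reads) unless another scale is named.

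Early response genes are switched on within minutes of growth factor, stress or calcium signals, without new protein synthesis, and many of their RNAs are short-lived. Kinases of the ERK pathway activate serum response factor (SRF) and its cofactors at CArG boxes in the promoters of such genes, EGR1 being a classical example. The ZFP36 proteins act at the other end of the life of these RNAs, since they bind AU-rich elements in 3′ untranslated regions (3′ UTRs) and recruit the deadenylation machinery.

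The promoter of EGR1 is shown because EGR1 had the largest called rise among the members, and because it holds CArG boxes (CC, a run of A or T, and GG), which are printed in capitals. It spans 250 bases before to 50 after the annotated start (RefSeq, GRCh38.p14, chr5:138465229-138465528, plus strand).
EGR1 promoter: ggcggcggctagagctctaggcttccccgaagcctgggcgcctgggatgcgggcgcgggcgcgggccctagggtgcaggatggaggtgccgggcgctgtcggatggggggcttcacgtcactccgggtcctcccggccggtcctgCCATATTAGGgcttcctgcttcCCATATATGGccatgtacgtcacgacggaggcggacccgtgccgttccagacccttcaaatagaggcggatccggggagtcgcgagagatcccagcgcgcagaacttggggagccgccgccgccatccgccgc
The boxes began 105 and 83 bases before the start. A CArG box on either strand was found in 454 of 35116 RefSeq promoters of that length (1.29%) and in 2 of the 11 promoters listed for 7 of the members, the other being a promoter of EGR2. The cyclic AMP response element core TGACG was found in 24.6% of all promoters and in 5 of these 11, while the EGR motif (GCG, then G or T, then GGGCG), the AP-1 motif (TGACTCA or TGAGTCA) and TATAAA, in 5.77%, 4.95% and 11.5% of all promoters, were in 0 of 11. All motifs were searched on both strands, and EGR3, IER3 and ZFP36L2 are the members with no promoter in the table. These matches are descriptions of sequence and not of binding.

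Stretches of 3′ UTR are shown for the AU-rich motif that the ZFP36 proteins recognize. In IER3 the ATTTA pentamer is in capitals (hg38, chr6:30743648-30743677, minus strand), and in the other genes the nonamer TTATTTATT is in capitals, for IER5 at chr1:181092443-181092471 and for ZFP36 at chr19:39409196-39409224 on the plus strand and for ZFP36L1 at chr14:68788077-68788105 and ZFP36L2 at chr2:43223448-43223476 on the minus strand.
IER3: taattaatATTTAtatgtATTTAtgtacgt
IER5: gtgtcttcctTTATTTATTtatttattta
ZFP36: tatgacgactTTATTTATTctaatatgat
ZFP36L1: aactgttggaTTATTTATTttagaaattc
ZFP36L2: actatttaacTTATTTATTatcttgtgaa
The nonamer lay in the 3′ UTR of 4 of the 10 members, IER5 and the 3 ZFP36 genes, against 10.2% of 11790 genes tested for T>C reads that had an annotated 3′ UTR. IER5 held 3 overlapping copies, all within the stretch shown, of which only the first is in capitals. At least 1 ATTTA was present in 9 of 10 members, IER2 being without one, against 75.3% of those genes. Per kb of 3′ UTR, IER3 held 8.14 copies, ZFP36 held 7.06 and NR4A1 held 5.37, where the median gene held 1.79 and the 90th percentile was 4.78. ZFP36L1 held 4.28, IER5 held 3.32 and ZFP36L2 held 2.61. EGR2 held 1.65, EGR3 held 1.07, EGR1 held 0.818 and IER2 held 0, so 6 of the 10 members lay above the median. The 3′ UTRs are those of the canonical transcripts in GENCODE release 44, which need not be the ends that were counted.

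The libraries held 16955633 to 28782678 total reads (median 21356401), of which 15.9% to 21.3% were T>C reads. The lowest share of T>C reads was in the 3h sample of S9CC13_R6, which also had the lowest value of the surrogate variable that the fit removed, and results are given without this library where that changes them. Of 12 cranial neural crest markers, 12 reached a mean of 1 CPM (reads scaled to a common library total) in every group, and their summed level was 4352 to 4415 CPM at 0h, 5202 to 5445 at 3h and 6481 to 6865 at 24h, with SOX9 itself among them. SOX9 RNA was not the target of the compound and its T>C reads were higher after treatment (9493, 9961 and 9914 at 0h, 18399, 15047 and 17069 at 3h, 23542, 19883 and 20923 at 24h), so the RNA does not check the loss of the protein. Of 5 pluripotent cell markers, POU5F1, NANOG and TDGF1 stayed under 1 CPM, whereas LIN28A and DPPA4 were present (summed level of the list 350 to 414 at 0h and 282 to 306 at 24h). Of 5 neural progenitor markers, only DCX reached 1 CPM (summed level 12.4 to 18.2 at 0h and 8.29 to 10.6 at 24h), and SOX10 of the glial and melanocyte list did not reach it (list sum 4.78 to 7.26 at 0h and 2.69 to 3.94 at 24h). Of 4 cartilage markers, COL2A1 and COL9A1 were present, and the summed level was 340 to 372 at 0h and 172 to 225 at 24h. These lists thus moved with time in the same libraries as the members, and their part in the members' values was not tested. In a bulk library, fewer cells that express a gene and less RNA per cell cannot be told apart.

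The early genes did not move together after SOX9 depletion. IER3 was lower at 3h and at 24h, EGR1 and IER2 were higher at 24h only by the test, and the other members with enough reads did not pass it. Calls are those with an adjusted p (Benjamini-Hochberg) under 0.1 in the DESeq2 fit across all tested genes. In T>C reads, 8 of the 10 members passed the filter on low counts, EGR2 and ZFP36 being left out. EGR3 passed only through libraries after dTAGV-1, since no 0h library reached 1 CPM for it. At 3h, 1 of 8 was called, IER3, which fell, where 1.79% of 12037 genes were called (1.01% higher and 0.789% lower). At 24h, 3 of 8 were called, EGR1 and IER2 higher and IER3 lower, where 4.98% of genes were called (2.38% higher and 2.59% lower). Between 24h and 3h, 2 of 8 were called, EGR1 and IER2, against 1.14% of genes. The median log2 change of the 8 members, EGR3 included, was -0.02 at 3h and 0.22 at 24h, beside -0.01 and 0.00 over all tested genes. The median of the 7 members tested in total reads, without EGR3, was -0.04 at 3h and 0.17 at 24h, beside -0.01 and 0.00. In total reads, where 7 members passed the filter, the same genes were called at 3h (IER3, 1 of 7 against 1.89% of 11710 genes) and at 24h (EGR1, IER2 and IER3, 3 of 7 against 15.0%), and IER2 alone was called between 24h and 3h (1 of 7 against 5.39%). All comparisons with 0h share the same 3 control libraries, so the 3h and 24h values of a gene are not independent. Total reads include the T>C reads, so calls in T>C reads and in total reads are not independent either.

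**Figure D1:**
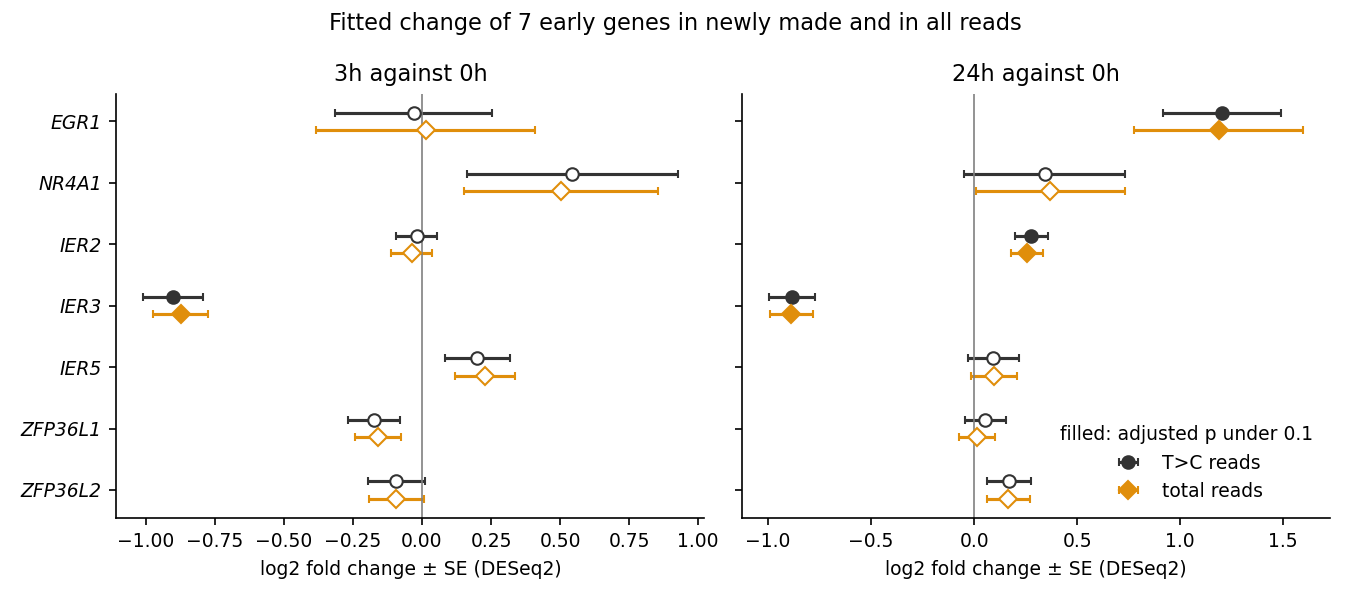
Log2 fold change with its standard error from the DESeq2 fit (x axis) for 7 early genes (y axis), in T>C reads (circles) and total reads (diamonds), at 3h and at 24h against 0h. Filled symbols passed an adjusted p under 0.1; IER3 lay near -0.9 at both times in both kinds of reads, and EGR1 lay near 1.2 at 24h.

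EGR1, a zinc finger transcription factor that binds GC-rich sites, lies at chr5:138465479-138469303 on the plus strand (hg38), with its last exon at chr5:138466757-138469303. Its normalized T>C reads were 100.02, 89.5 and 66.3 at 0h, 95.3, 89.2 and 72.3 at 3h, and 266, 116 and 180 at 24h. Every 24h library was above every library at 0h and at 3h, and the 0h and 3h values overlapped. The rise within a culture was 1.41 and 1.43 on the log2 scale in S9CC13_R6 and S9CC47_R6 but 0.37 in S9CC47_R5, the culture of batch R5. In the fit, EGR1 was 2.30-fold higher at 24h (log2 change 1.20, SE 0.288, adjusted p 0.00183 by DESeq2), and at 3h its log2 change was -0.03 (95% interval -0.59 to 0.53). The 24h change exceeded the 3h change by 1.23 (SE 0.313, adjusted p 0.0139).

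Total reads of EGR1, which include its T>C reads, gave a like picture. They were 149, 171 and 105 at 0h, 178, 159 and 112 at 3h, and 415, 200.1 and 300.1 at 24h. The total reads were 2.28-fold higher at 24h (log2 change 1.19, SE 0.41, adjusted p 0.0403), and the groups at 24h and 0h did not overlap. The EGR1 calls depended on which cultures were in the fit. Without S9CC13_R6 the log2 change in T>C reads at 24h was 0.63 (adjusted p 1.0), without S9CC47_R6 it was 0.90 (adjusted p 1.0), and without S9CC47_R5 it was 1.72 (adjusted p 3.71e-04), in fits that called 54, 69 and 251 genes in place of 599. The difference between 24h and 3h was likewise not called without S9CC13_R6 (0.58) or without S9CC47_R6 (1.24). In total reads the 24h call was lost without S9CC13_R6 (log2 change 0.31, adjusted p 1.0), without the 3h library of that culture alone (1.1197, SE 0.624, adjusted p 0.571) and with the 6 libraries of 0h and 24h only (0.96, adjusted p 0.749).

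NR4A1, an orphan nuclear receptor (chr12:52022832-52059507, plus strand, 7 exons), had few reads. Its normalized T>C reads were 25.0, 36.3 and 20.6 at 0h, 14.6, 39.8 and 57.2 at 3h, and 32.2, 46.7 and 63.7 at 24h. The 3h libraries lay on both sides of the 0h libraries, and at 24h the reads were higher than at 0h within each of the 3 cultures while the groups overlapped. The log2 change was 0.54 at 3h (SE 0.381, adjusted p 0.905 by DESeq2) and 0.34 at 24h (SE 0.391, adjusted p 0.806), with 95% intervals of -0.20 to 1.29 and -0.42 to 1.11. The 24h value depended on the fit, being 0.84 (SE 0.455) without the surrogate variable, 0.76 (SE 0.423) with the culture as a replicate block and 0.80 (SE 0.43) with the 6 libraries compared, and in total reads 0.37 in the main fit, 1.03 (SE 0.539) without the surrogate variable and 0.86 (SE 0.441) with the block. None of these passed the test. The 3h value was -0.79 without S9CC47_R6 (adjusted p 1.0).

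EGR2 and EGR3, relatives of EGR1 with the same kind of DNA-binding domain, were close to the limit of detection. EGR2 (chr10:62811996-62819167, minus strand) had 4, 3 and 1 total reads at 0h, 0 in each of the 3 libraries at 3h, and 1, 2 and 1 at 24h. A count of 0 allows up to 3 reads per library, so no fold change is given. EGR3 had 1, 6 and 0 total reads at 0h, 0, 8 and 0 at 3h, and 11, 11 and 1 at 24h, of which 10, 5 and 1 were T>C reads at 24h. Most of its reads before 24h were from S9CC47_R5, and its log2 change of 3.88 at 24h had an SE of 1.81 and did not pass the test (adjusted p 0.297 by DESeq2).

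**Figure D2:**
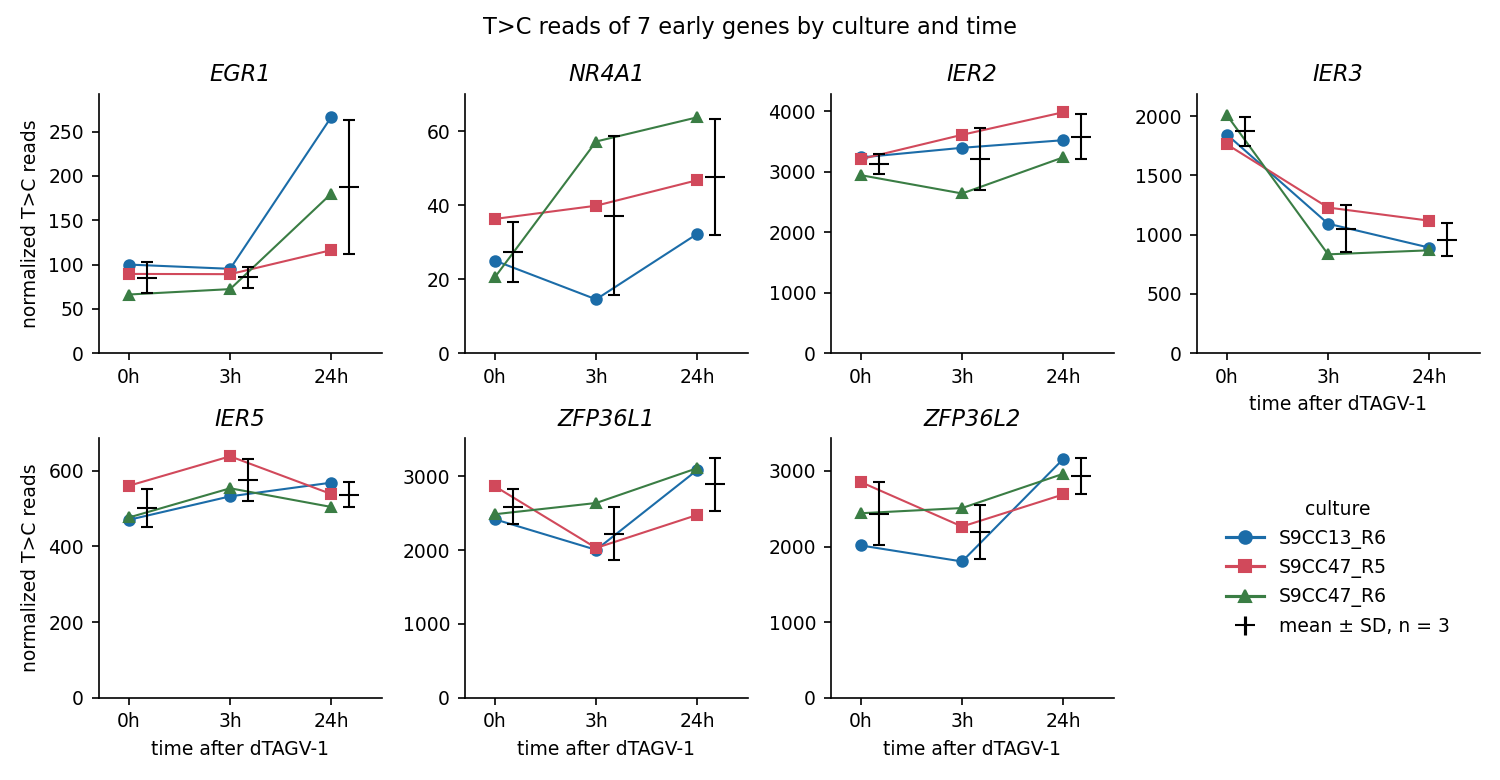
Normalized T>C reads (y axes, each from 0) of 7 early genes at 0h, 3h and 24h after dTAGV-1 (x axes), with a line for each of the 3 cultures and the mean ± SD (n = 3) in black. IER3 fell from 1762 to 2008 reads at 0h to 834 to 1229 at 3h in all 3 cultures, and EGR1 was above its 0h range in each culture at 24h.

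IER3, a stress-inducible protein linked to cell survival and to ERK signaling, was the member with the largest fall (chr6:30743199-30744548, minus strand, last exon chr6:30743199-30744196). Its normalized T>C reads were 1844, 1762 and 2008 at 0h, 1093, 1229 and 834 at 3h, and 891, 1118 and 868 at 24h. All 6 libraries after dTAGV-1 lay below all 3 at 0h, and within cultures the log2 change at 3h was -0.75, -0.52 and -1.27. In the fit, T>C reads of IER3 fell by 46.4% at 3h (log2 change -0.90, SE 0.109, adjusted p 1.09e-13 by DESeq2). By 24h they had decreased by 45.8% from 0h, with a log2 change of -0.88 (SE 0.113, adjusted p 2.09e-12).

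No further change in IER3 between 3h and 24h passed the test, with a log2 difference of 0.02 (95% interval -0.23 to 0.26). Total reads include the T>C reads. They were 4030, 3762 and 4487 at 0h, 2355, 2695 and 1913 at 3h, and 2027, 2397 and 1889 at 24h. They fell to a like degree (log2 change -0.87 at 3h, adjusted p 3.09e-15, and -0.89 at 24h, adjusted p 4.73e-15), again with no overlap with 0h. The 3h call in T>C reads was lost without S9CC47_R6 (log2 change -0.67, adjusted p 1.0, in a fit that called 5 genes), and the 24h call was lost without S9CC13_R6 in T>C reads (-0.61, adjusted p 0.171) and in total reads (-0.48, adjusted p 0.251). The last exon of IER3 is overlapped by the antisense RNAs IER3-AS1 and HCG20, and those of EGR3, IER2, ZFP36L2 and NR4A1 by other antisense RNAs, none with a row of its own in the tables. The study's methods name a QuantSeq 3′ FWD kit and the use of read 1, but do not state whether counting used strand. Reads of these genes and of their antisense partners were not separated here. The last exon of EGR2 is overlapped by an RNA on the same strand, also without a row of its own.

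IER2, a nuclear regulator of transcription (chr19:13150411-13154911, plus strand), changed little in comparison. Its normalized T>C reads were 3239, 3212 and 2946 at 0h, 3399, 3614 and 2643 at 3h, and 3524, 3987 and 3241 at 24h. The lowest library at 24h lay just above the highest at 0h, and the 3h libraries spanned the range at 0h. Within cultures T>C reads were higher at 24h by 0.12, 0.31 and 0.14 on the log2 scale. IER2 was 1.21-fold higher at 24h in the fit (log2 change 0.28, SE 0.0781, adjusted p 0.0148 by DESeq2), and the 24h change exceeded the 3h change by 0.30 (adjusted p 0.0503) in T>C reads and by 0.29 in total reads (adjusted p 0.0161). That difference was not called with the culture as a replicate block (0.16, adjusted p 0.444, and 0.22, adjusted p 0.114 in total reads), without the surrogate variable (0.16, adjusted p 0.582, and 0.22, adjusted p 0.209) or, in T>C reads, without the 3h library of S9CC13_R6 (adjusted p 0.129). With the block the call at 24h against 0h was lost too (log2 change 0.19, adjusted p 0.333), as it was without the surrogate variable (0.19, adjusted p 0.462), with only the 6 libraries compared (0.19, adjusted p 0.342) and without any of the 3 cultures (0.21 to 0.35). In total reads the 24h change was 0.26 (adjusted p 0.0141) and became 0.21 with the block (adjusted p 0.129), 0.21 without the surrogate variable (adjusted p 0.215) and 0.28 with the 6 libraries compared (adjusted p 0.3).

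IER5, which belongs to the same family as IER2 and takes part in the heat shock response (chr1:181088700-181092900, plus strand, 1 exon), had normalized T>C reads of 470, 560 and 476 at 0h, of 532, 638 and 553 at 3h, and of 568, 538 and 504 at 24h. Its reads were higher at 3h than at 0h in each of the 3 cultures by 0.18, 0.19 and 0.22 on the log2 scale, with group ranges that overlapped. The log2 change of 0.20 at 3h did not pass the test (SE 0.119, adjusted p 0.807 by DESeq2; 95% interval -0.03 to 0.43), nor did 0.09 at 24h (SE 0.124, adjusted p 0.839).

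**Figure D3:**
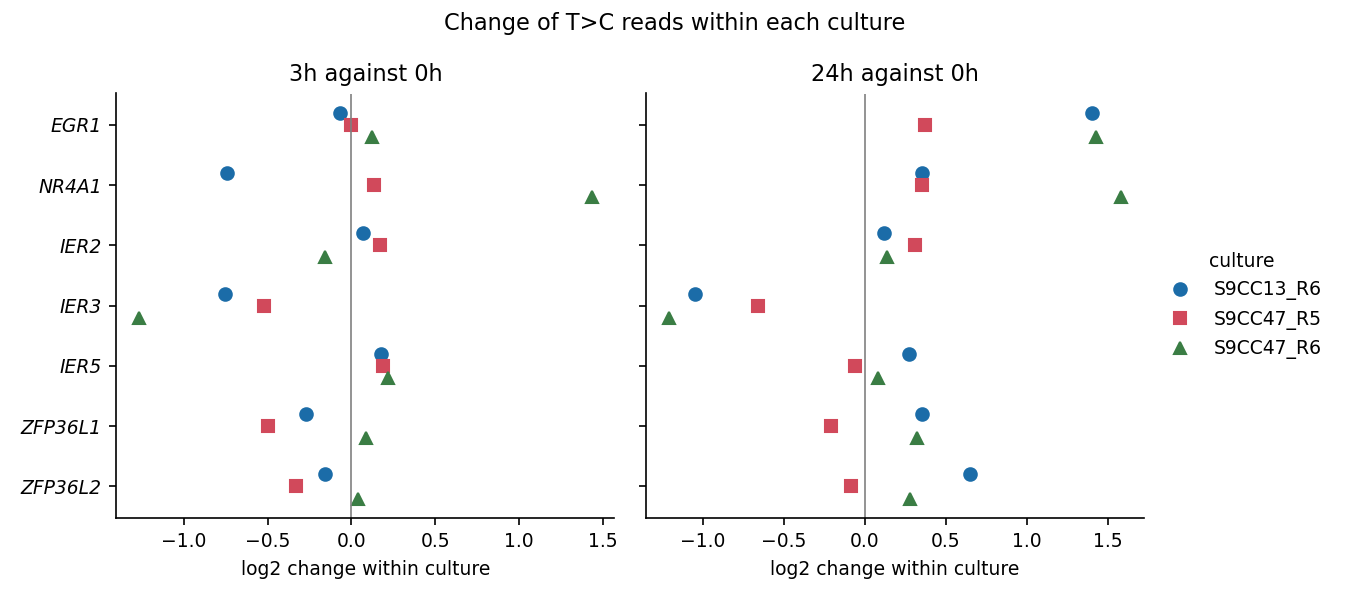
Log2 change of normalized T>C reads (x axis, with 1 read added) within each culture at 3h and at 24h against 0h, for 7 early genes (y axis), with 1 symbol per culture. IER3 was below 0 in 3 of 3 cultures at both times and EGR1 above 0 in 3 of 3 at 24h, while ZFP36L1, ZFP36L2 and IER5 differed in sign between cultures at 24h.

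ZFP36L1 and ZFP36L2, which promote decay of RNAs with AU-rich elements, did not differ from 0h by the test at either time. ZFP36L1 (chr14:68787660-68796253, minus strand) had normalized T>C reads of 2416, 2862 and 2485 at 0h, of 2003, 2029 and 2637 at 3h, and of 3083, 2476 and 3109 at 24h. ZFP36L2 (chr2:43222402-43226606, minus strand) had 2015, 2853 and 2441 at 0h, 1803, 2265 and 2510.1 at 3h, and 3158, 2690 and 2963 at 24h. For both genes the culture S9CC47_R5 was highest at 0h and lower at 24h than at 0h, whereas S9CC13_R6 and S9CC47_R6 were higher at 24h than at 0h. The log2 change of ZFP36L1 was -0.17 at 3h (SE 0.0952, adjusted p 0.75 by DESeq2) and 0.05 at 24h (SE 0.099), and that of ZFP36L2 was -0.09 and 0.17 (SE 0.108, adjusted p 0.546).

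Between 24h and 3h, T>C reads of ZFP36L1 and ZFP36L2 were higher in 3 of 3 cultures each. In the DESeq2 fit with batch and the surrogate variable these differences were 0.23 (adjusted p 0.535) and 0.26 (adjusted p 0.483) and did not pass the test. With the culture as a replicate block they were 0.38 (adjusted p 0.0717) and 0.44 (adjusted p 0.0377) and did. In total reads the block likewise gave 0.32 (adjusted p 0.0706) and 0.47 (adjusted p 0.0185), where the main values were 0.17 (adjusted p 0.376) and 0.26 (adjusted p 0.213). ZFP36 itself (chr19:39406847-39409412, plus strand), the founding member of the family, had 6, 3 and 3 total reads at 0h, 1, 8 and 5 at 3h, and 2, 8 and 3 at 24h, too few for a comparison.

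The members with enough reads, and NR4A1 with few, had a high T>C share, which is the percent of a gene's reads that carried a conversion. At 0h the mean share was 83.3% ± 5.48 (SD, n = 3) for NR4A1, 75.8% ± 2.76 for IER5, 67.8% ± 4.55 for ZFP36L2, 61.5% ± 5.09 for EGR1, 54.0% ± 4.93 for ZFP36L1, 52.5% ± 2.37 for IER2 and 46.5% ± 2.83 for IER3. The median of 10657 genes with a mean of at least 50 total reads was 27.1%, with 5th and 95th percentiles of 8.11% and 59.6%. NR4A1 fell under that mean, so it was placed against these genes without being one of them. A lower share than that of NR4A1 was seen in 99.9% of these genes, than that of IER5 in 99.5%, than that of ZFP36L2 in 98.3%, than that of EGR1 in 96.0%, and than that of IER3 in 82.8%. In that order, the ranges over the 3 cultures overlapped between NR4A1 and IER5, between ZFP36L2 and EGR1, between EGR1 and ZFP36L1 and between ZFP36L1 and IER2. The ranges of IER2 and IER3 met at 49.7%, and those of IER5 and ZFP36L2 did not overlap (72.9% to 78.3% against 62.7% to 71.4%). The counted 3′ end limits how many bases can convert, and U made up 29.3% (IER3) to 46.0% (ZFP36) of the last 150 bases of the members' 3′ UTRs against 33.3% in the median gene. The share of EGR2, EGR3 and ZFP36 rested on 8, 7 and 12 reads at 0h. That of NR4A1 rested on 97 reads at 0h, and its Wilson 95% intervals were about ± 8.01 to ± 17.0 percentage points per library.

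**Figure D4:**
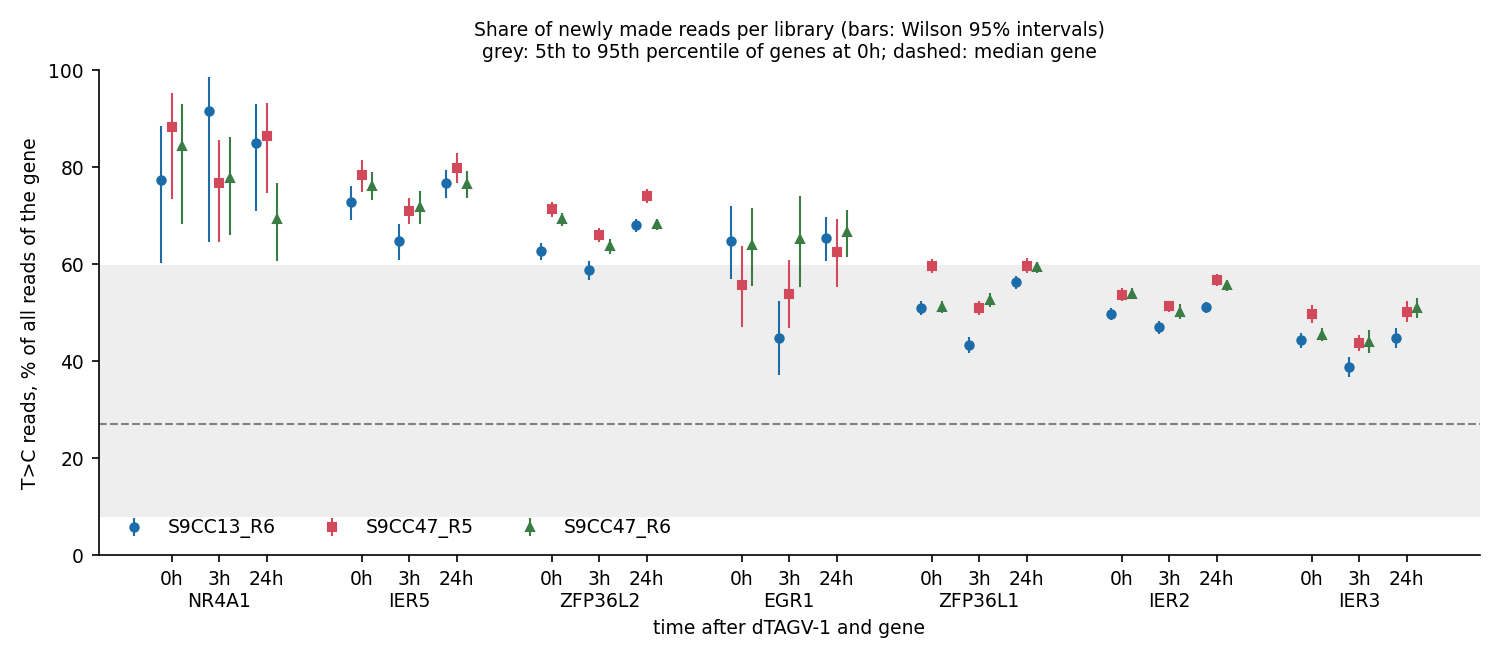
T>C reads as a percent of all reads of a gene (y axis) in each of the 9 libraries for 7 early genes at 0h, 3h and 24h (x axis), with Wilson 95% intervals that cover counting error only. The grey band spans the 5th to 95th percentile of genes at 0h (8.11% to 59.6%) and the dashed line is the median gene (27.1%); each library of the 7 genes lay above that median.

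By library, the share of EGR1 was 64.9%, 55.6% and 64.0% at 0h, 44.7%, 53.9% and 65.3% at 3h, and 65.3%, 62.6% and 66.6% at 24h, with Wilson 95% intervals of about ± 4.48 to ± 9.41 percentage points. The low value at 3h was that of S9CC13_R6 (interval 37.3% to 52.4%), whose share over all genes was the lowest as well. The share of IER3 was 44.3%, 49.7% and 45.5% at 0h, 38.9%, 43.8% and 44.03% at 3h, and 44.8%, 50.2% and 51.0% at 24h. Its share was lower at 3h than at 0h in 3 of 3 cultures, with differences of -5.94 to -1.49 percentage points, and higher at 24h than at 3h in 3 of 3, by 5.93 to 7.00, before centering.

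After each library was centered on its median gene, 0 of the 6 members tested for a change in share by limma were called at 3h (against 0.328% of 10657 genes), at 24h (0.0%) or between 24h and 3h (0.516%). At an unadjusted p under 0.05, the members numbered 1, 0 and 3 in these comparisons and all genes 707, 697 and 1226. The 3 members were IER5 (log2 change of the odds 0.38, SE 0.142), ZFP36L1 (0.30, SE 0.0917) and ZFP36L2 (0.22, SE 0.0989), with adjusted p 0.332, 0.246 and 0.423 by limma. Before centering, the share was higher at 24h than at 3h in 3 of 3 cultures for EGR1, IER2, IER3, IER5, ZFP36L1 and ZFP36L2, by 1.31 to 20.6 percentage points. The library-wide share moved the same way in each culture, from 15.9%, 18.1% and 19.5% at 3h to 19.8%, 20.4% and 21.3% at 24h.

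Other early genes give the setting in which these members moved. The calls in each list stand beside 1.79% of 12037 genes called at 3h (1.01% higher and 0.789% lower). At 24h, 4.98% of genes were called (2.38% higher and 2.59% lower). Of 7 tested genes for AP-1 subunits and the related ATF3, 2 rose at 3h and 3 at 24h and 0 fell. JUN rose by 0.71 on the log2 scale at 3h (adjusted p 0.0129 by DESeq2, SE 0.188), and its rise at 24h was 1.68 (adjusted p 4.72e-16, SE 0.189). JUNB rose by 1.23 at 3h (adjusted p 0.0139, SE 0.325) and by 0.97 at 24h (adjusted p 0.0813). JUND rose by 0.80 at 24h (adjusted p 5.91e-04). The median of the 7 was 0.54 at 3h and 0.01 at 24h, beside -0.01 and 0.00 over all tested genes.

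Of 10 other early transcription factors, 1 rose at 3h and 5 at 24h and 0 fell (medians 0.13 and 0.66). HES1, a Notch effector, rose at both times (0.73, adjusted p 0.0114, and 1.55, adjusted p 9.70e-13 by DESeq2), and ID1 and ID2, inhibitors of helix-loop-helix factors, rose at 24h (1.14, adjusted p 0.00196, and 1.10, adjusted p 3.19e-04). Of 17 other early genes, 0 rose and 2 fell at 3h and 2 rose and 2 fell at 24h (medians 0.09 and -0.07). PHLDA1 fell by 0.80 at 3h (adjusted p 5.20e-09) and RHOB, a small GTPase, by 1.02 (adjusted p 0.00745). At 24h RHOB was still lower, with a log2 change of -0.84 (adjusted p 0.0433), whereas CITED2 and PLK2 rose at 24h by 1.42 (adjusted p 4.91e-05) and 0.79 (adjusted p 1.54e-04).

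Of 10 genes that feed back on ERK signaling, 1 rose and 2 fell at 3h and 5 rose and 1 fell at 24h (medians -0.05 and 0.54). DUSP4, an ERK phosphatase, rose at both times (0.57, adjusted p 1.27e-05, and 0.72, adjusted p 8.56e-09 by DESeq2), while DUSP6, another, fell by 0.32 at 3h (adjusted p 0.0227) and was higher by 0.59 at 24h (adjusted p 1.25e-08). DUSP5, a nuclear ERK phosphatase, rose by 1.057 at 24h (adjusted p 0.024). SPRY4 fell by 0.53 at 3h (adjusted p 0.0151). Of the EGR co-repressors NAB1 and NAB2, neither changed at 3h by the test and NAB2 rose by 0.57 at 24h (adjusted p 0.00341). Of 5 SRF cofactors, 12 genes of deadenylation, decapping, decay and AU-rich element binding, and 2 tested close relatives of the members, 0 were called at either time by DESeq2 or by edgeR. At an unadjusted p under 0.05 by DESeq2 they numbered 1 at 3h, an SRF cofactor, and 0 at 24h. All tested genes at that p numbered 882 and 1633 of 12037. Where 1.79% and 4.98% of all genes were called, 0 calls in lists this small say little.

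Over the 9 libraries, the genes whose log2 normalized T>C reads correlated best with EGR1 were EEPD1 (Pearson r 0.92), PSD3 (0.916) and SLU7 (0.914). Those most like IER3 were ELP2 (0.97), TENT5B (0.968) and RTKN (0.967), and those most like IER2 were ZNF136 (0.934), ID2 (0.915) and WAPL (0.906). For IER5 they were LENG1, COX6B1 and C11orf98 (0.938 to 0.906), for ZFP36L1 MPLKIP, GFM2 and HNRNPU (0.972 to 0.967), for ZFP36L2 IFT43, C16orf72 and HCCS (0.976 to 0.975), and for NR4A1 BORA, GRPEL2 and ARPC3 (0.99 to 0.957). Each is the highest of 8675 or 8676 correlations over libraries that share cultures and times, and is given as a description.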

How the data were processed

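RNA labeled with 4-thiouridine was measured by SLAM-seq in 9 libraries, grouped by the treatment time in the labels. The authors trimmed read 1 with skewer and of poly(A), mapped and counted it with slamdunk on hg38, and deposited raw read counts per gene symbol in 2 tables (all reads and reads with a T>C conversion). The deposited counts are raw. The methods state no molecular identifiers, so Wilson 95% intervals cover counting error only. The replicates are cultures of 2 clones of 1 line in 2 differentiation batches, so p-values reach no further than these cultures. The main fits had no culture term and treated the 9 libraries as independent, though each culture was sampled at every time. Their p-values measure the spread left among these libraries after the fitted terms.

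Raw counts of all 9 libraries were fitted with DESeq2 1.42.0 (R 4.3.3) with time, batch and 1 surrogate variable (svaseq, sva 3.50.0), over protein-coding genes that reached 1 CPM in 3 or more libraries, with independent filtering off and calls at an adjusted p under 0.1. The T>C share was tested with limma 3.58.1 on log2((T>C reads + 0.5) / (unconverted reads + 0.5)), centered on each library's median gene, with time and batch, over genes with a mean of at least 50 total reads. Alternatives were edgeR 4.0.16, TMM factors, size factors of total reads, no centering or a pseudocount of 2 for the share, no surrogate variable, a replicate block, no filter, only the 6 libraries compared, each culture left out and, chosen after seeing the data, the 3h library of S9CC13_R6 left out. Gene symbols were matched to GENCODE release 44 (18451 of 18970 directly, 11 by a RefSeq symbol and 390 by a synonym, 118 unmatched). The DESeq2 fit without the surrogate variable and the limma fit were run on data simulated without batch or culture effects. The DESeq2 fit with the surrogate variable, used for the results, was not tested in this way.

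The culture in the titles pairs libraries across times. The deviations of paired libraries from their group means correlated with a mean r of 0.176 in T>C reads (-0.127 to 0.572) and 0.265 in total reads (-0.163 to 0.7). All 10 members are named. Of other genes, those of lists of early genes, ERK feedback genes, co-repressors, SRF cofactors, decay factors and markers are counted, and the 3 called genes with the largest change per list and time are named. The genes most like a member are the 3 with the highest r among tested genes averaging 50 or more normalized T>C reads. The members and lists were chosen with earlier results of these data known.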

Additional observations from a re-analysis of the deposited data

Results flagged for a closer look

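The effect on EGR1 in T>C reads differed between times, being higher at 24h than at 3h by 1.23 on the log2 scale (adjusted p 0.0139 by DESeq2), and so did that on IER2, by 0.30 in T>C reads (adjusted p 0.0503) and 0.29 in total reads (adjusted p 0.0161). The difference for IER2 was not called with the culture as a replicate block (0.16, adjusted p 0.444, and 0.22, adjusted p 0.114).

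For some members 1 culture, that of batch R5 or that of clone S9CC13, moved apart from the other 2, and these differences were not tested. At 24h, the T>C reads of ZFP36L1, ZFP36L2 and IER5 changed by -0.21, -0.085 and -0.058 on the log2 scale in S9CC47_R5 and were higher in the other 2 cultures. At 3h, the T>C reads of EGR3 changed by 0.42 in S9CC47_R5, from 3 to 6 reads, while the other 2 cultures had 0 T>C reads at both times and so did not move. NR4A1 changed by -0.74 at 3h in S9CC13_R6, from 24 to 11 T>C reads, and was higher in the 2 cultures of S9CC47. That 3h library had the lowest T>C share over all genes, but the share of NR4A1 in it was 91.7%. Total reads of NR4A1 fell there from 31 to 12 (log2 change -1.18). S9CC47_R5 is the only culture of batch R5, so for the differences in that culture, culture and batch cannot be told apart. S9CC13_R6 is the only culture of clone S9CC13, so for NR4A1, culture and clone cannot be told apart.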

How the results depend on the processing

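Of the 256 log2 changes of single members in T>C reads and 189 in total reads under an alternative, 211 and 148 kept their direction and side of the threshold. The change of NR4A1 at 24h moved from 0.34 to between 0.76 and 0.84 in T>C reads without the surrogate variable, with the replicate block or with only the 6 libraries compared. IER3 at 3h kept its fall in T>C reads under every alternative and its call under all but 1, the fit without S9CC47_R6. In total reads it kept both under every alternative run, but the fit without S9CC47_R6 was not among them. EGR1 at 24h kept its direction under every alternative run. Leaving out a culture also cut the genes called in all from 599 to between 54 and 251 at 24h in T>C reads. Low reads limit EGR2, EGR3, ZFP36 and NR4A1. The fit of total reads without S9CC47_R6 was not run, since no surrogate variable could be estimated.

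The culture as a replicate block (paired analysis) moved members called between 24h and 3h in total reads from 1 (IER2) to 3 (EGR1, ZFP36L1 and ZFP36L2, with IER2 lost), and the log2 change of EGR1 and IER2 in T>C reads at 3h to 0.0281 and 0.0282, of IER3 between 24h and 3h to -0.13, and of NR4A1 between 24h and 3h to 0.42 in T>C and 0.63 in total reads. Without the surrogate variable these were 2 members, 0.0194, 0.0334, -0.13, 0.36 and 0.55. Over all genes the block moved the calls between 24h and 3h from 137 to 530 in T>C reads and from 631 to 1544 in total reads, those at 3h in total reads from 221 to 141, and those in share between 24h and 3h from 55 to 161. With edgeR, 968 genes were called in T>C reads at 24h in place of 599, and 267 between 24h and 3h in place of 137. Members called between 24h and 3h in total reads were 2 with edgeR, 3 without a filter and 2 with only the 6 libraries compared. With only those 6 libraries, 1 member was called between 24h and 3h in T>C reads and 1 at 24h in total reads, and the log2 change in total reads was -0.0223 for EGR1 at 3h and -0.039 for ZFP36L1 at 24h. Size factors of total reads gave 4 members called between 24h and 3h in T>C reads. Without a filter, the change between 24h and 3h was -0.00292 for IER3 in T>C reads and 0.10 for NR4A1 in total reads. For the share, no centering gave 1 member called between 24h and 3h and a change of -0.17 for IER2 at 3h, and a pseudocount of 2 gave -0.0018 for the latter.

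With each culture, or the 3h library of S9CC13_R6, left out, members called in T>C reads ranged from 0 to 1 at 3h, 0 to 3 at 24h and 0 to 1 between 24h and 3h, and in total reads from 0 to 2 at 24h and 0 to 1 between 24h and 3h. The log2 change in T>C reads at 3h ranged from -0.34 to 0.053 for EGR1, -1.60 to 0.28 for EGR3, -0.062 to 0.11 for IER2 and -0.79 to 0.74 for NR4A1. At 24h it ranged from -0.026 to 0.19 for IER5, -0.21 to 0.20 for ZFP36L1 and -0.080 to 0.30 for ZFP36L2, and between 24h and 3h from -0.19 to 0.24 for IER3, -0.23 to 0.0077 for IER5 and -0.37 to 1.14 for NR4A1. In total reads it ranged at 3h from -0.064 to 0.15 for EGR1 and -0.066 to 0.026 for IER2, at 24h from -0.071 to 0.18 for IER5, -0.28 to 0.092 for ZFP36L1, -0.22 to 0.26 for ZFP36L2 and -0.11 to 0.16 for NR4A1, and between 24h and 3h from 0.014 to 0.30 for IER3, -0.051 to 0.19 for ZFP36L1 and -0.054 to 0.31 for ZFP36L2. For the share it ranged at 3h from -0.40 to 0.11 for EGR1 and -0.060 to 0.092 for IER2, at 24h from -0.0095 to 0.20 for EGR1, -0.021 to 0.073 for IER2, -0.026 to 0.085 for IER3, -0.0049 to 0.16 for IER5 and -0.027 to 0.21 for ZFP36L2, and between 24h and 3h from -0.020 to 0.11 for IER2. The cause of these reversals was not tested.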
